A study of Mus musculus with 56 samples.

Results

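RNA of the Hox genes, which lie in 4 clusters in mammals, was measured while mouse fibroblasts were converted to pluripotent cells with lowered or raised CTCF, a DNA-binding insulator protein. Members were taken by name, as every gene called Hoxa, Hoxb, Hoxc or Hoxd with a number. The table of sorted cells held 30 such entries among 13451 genes, for 29 of the 39 annotated Hox genes. They comprised 8 of 11 Hoxa genes, 8 of 10 Hoxb genes, 6 of 9 Hoxc genes and 7 of 9 Hoxd genes, with Hoxd4 present under 2 identifiers (ENSMUSG00000101174 and ENSMUSG00000115956). A separate day 10 table held 14 members among 12935 genes, and a table of a fibroblast and a pluripotent library held 36 among 13861. Hoxa4, Hoxa6, Hoxa13, Hoxb1, Hoxb13, Hoxc11, Hoxc12, Hoxc13, Hoxd1 and Hoxd12 were not analysed in the sorted cells. All 30 entries passed the filter on low values.

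The starting cells were OG2 mouse embryonic fibroblasts (MEFs), which carry a GFP reporter driven by the pluripotency gene Oct4. In the sorted series they received a doxycycline-inducible polycistronic lentivirus of the factors Oct4, Sox2, Klf4 and Myc (OSKM) with rtTA, and either a control shRNA (shLuci) or an shRNA against Ctcf (shCTCF). Cells were taken at day 0, at days 3, 6 and 9 as Thy1+ (a fibroblast surface marker), SSEA1+ (a marker of advancing cells) or SSEA1-Thy1- cells, and at day 12 as GFP+ cells. These 11 populations under 2 shRNAs gave 22 groups of 2 libraries. Day 10 cells of the overexpression series received the factors as separate retroviruses with a control vector, a CTCF vector, or the CTCF vector and an shRNA against Smarca5, with 2 libraries in each group. Other day 10 cells carried a control shRNA or an shRNA against Ctcf, also with 2 libraries in each group. All infected cells grew in embryonic stem cell medium with Vitamin C, and the MEF and iPSC (induced pluripotent stem cell) samples were 1 library each. The labels do not say whether the 2 libraries of a group came from separate cultures, so the p-values measure the spread between libraries, which may be technical.

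Hox genes encode homeodomain transcription factors that give cells along the body axis and the limbs their positional identity. In each cluster the genes lie in a fixed order, with low-numbered genes expressed anteriorly and early and high-numbered genes posteriorly, distally and late. Fibroblasts keep a Hox pattern that reflects their site of origin, whereas in pluripotent cells the clusters are largely silent and carry Polycomb marks. CTCF binds within and around the clusters and can separate active from repressed parts of them. In GRCm38 the annotated clusters spanned chr6:52155590-52260880 (Hoxa), chr11:96194316-96368256 (Hoxb), chr15:102921103-103036852 (Hoxc) and chr2:74668310-74765142 (Hoxd).

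Upstream sequences are shown for the genes on which the results turn: Hoxa11, with the largest Ctcf shRNA difference at day 12, Hoxd13, with the largest mean over the populations, and the adjacent Hoxd3 and Hoxd4, which followed a different course from the other members. They come from RefSeq (GRCm38.p6) and end at the base before the start annotated there. The Hoxd3 window is instead cut before its start in the GENCODE M21 annotation, which was used for exons. That annotation starts Hoxd4 at chr2:74711929, so the printed Hoxd4 window lies inside the gene as annotated there. Coordinates and strands are chr6:52245811-52246060 (minus strand) for Hoxa11, chr2:74667975-74668224 (plus) for Hoxd13, chr2:74711743-74711926 (plus) for Hoxd3 and chr2:74721728-74721977 (plus) for Hoxd4. Capitals mark a match to the core of the CTCF motif, searched on both strands as CC, 3 free bases, AG, 2 free bases and GGC.
Hoxa11: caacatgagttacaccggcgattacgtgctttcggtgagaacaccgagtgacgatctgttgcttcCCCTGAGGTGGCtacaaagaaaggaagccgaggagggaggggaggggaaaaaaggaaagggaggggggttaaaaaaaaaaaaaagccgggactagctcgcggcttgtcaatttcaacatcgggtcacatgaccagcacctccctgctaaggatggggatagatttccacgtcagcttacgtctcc
Hoxd13: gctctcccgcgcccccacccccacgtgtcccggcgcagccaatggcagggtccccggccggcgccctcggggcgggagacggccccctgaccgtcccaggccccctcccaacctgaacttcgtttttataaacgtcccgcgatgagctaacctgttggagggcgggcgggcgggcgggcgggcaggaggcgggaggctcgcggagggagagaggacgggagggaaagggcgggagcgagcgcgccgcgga
Hoxd3: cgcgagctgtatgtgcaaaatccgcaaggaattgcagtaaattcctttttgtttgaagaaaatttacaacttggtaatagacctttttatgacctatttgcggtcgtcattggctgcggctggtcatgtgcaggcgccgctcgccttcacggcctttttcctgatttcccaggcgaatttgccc
Hoxd4: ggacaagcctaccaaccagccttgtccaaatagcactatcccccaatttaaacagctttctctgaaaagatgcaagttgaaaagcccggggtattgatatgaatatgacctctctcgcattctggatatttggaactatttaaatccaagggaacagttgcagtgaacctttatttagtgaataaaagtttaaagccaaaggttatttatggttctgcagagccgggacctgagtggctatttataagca
The Hoxa11 match lay on the plus strand of the printed sequence, from -185 to -174 relative to the start, and the other 3 windows held none. The Hoxd13 window held 31 CpG dinucleotides, the Hoxa11 window 13, the shorter Hoxd3 window 11 and the Hoxd4 window 3. Among 24 Hox windows of 250 bases, 3 held the CTCF core (Hoxd11, Hoxa11 and Hoxc4), against 7.17% of 32851 windows genome-wide. A Hox-Pbx motif, TGATNNAT on either strand and without overlap with the CTCF core, was present in 4 (Hoxd11, Hoxa2, Hoxb8 and Hoxb1), against 7.68% of all windows. The median CpG count was 12.5 in the Hox windows and 6 in all windows. A match describes letters only and was not tested as a binding site.

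Several members cannot be told apart from neighbours in these counts. Hoxd3 and Hoxd4 share exon sequence on the same strand (62.3% of Hoxd3 and 52.3% of Hoxd4 exon bases), so their values are not independent. The library kit is not stated to keep strand, and the antisense gene Hoxb3os covers 52.9% of Hoxb3 and 27.3% of Hoxb2 exon bases. Antisense genes likewise cover 35.0% of Hoxa11, 25.4% of Hoxa3 and 20.4% of Hoxa7.

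The shRNA lowered its target in every population. Ctcf scores, the authors' normalised tag counts, were 790 and 830 in the day 0 control libraries and 520 and 616 with the Ctcf shRNA. At day 12 they were 2381 and 2441 against 698 and 674. The summed score of 9 fibroblast markers was 87764 to 93831 at day 0 and 13447 to 14513 in day 12 control cells, while that of 8 pluripotency markers went from 8 to 9 up to 38351 to 38868. Total scores were set nearly equal by the authors (26119844 to 28981763 over 44 libraries), so the sequencing depth of the sorted libraries is unknown.

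In control cells the 4 clusters fell by different amounts. All 30 entries were lower in day 12 GFP+ cells than at day 0, where 40.2% of all genes tested were lower. The median log2 difference was -3.62 for Hoxa, -4.26 for Hoxb, -4.31 for Hoxc and -2.65 for Hoxd, beside -0.01 for all genes. Differences are on the log2(score + 1) scale, which understates changes of low genes, and calls are limma tests with Benjamini-Hochberg adjusted p below 0.05 over all genes of the table. In these bulk samples, fewer cells expressing a gene and less RNA per cell cannot be told apart.

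**Figure D1:**
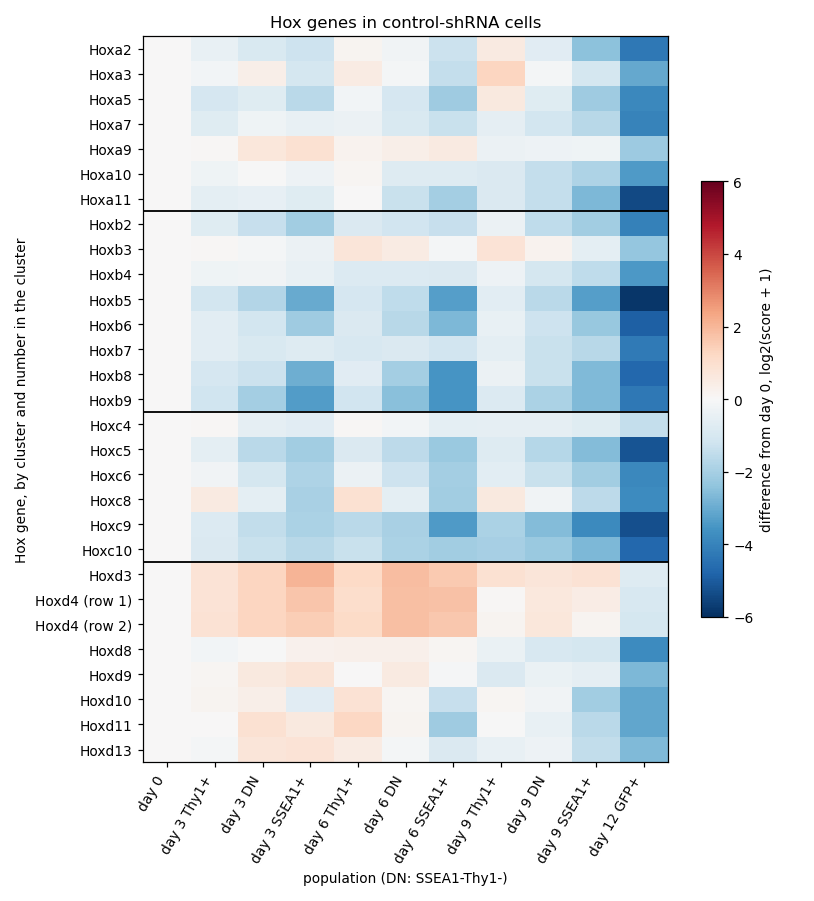
Log2(score + 1) difference from day 0 for each Hox entry (vertical axis, by cluster and number) in the 11 control-shRNA populations (horizontal axis), as means of 2 libraries. Blue is lower and red is higher than day 0. Every entry drawn is blue at day 12, and Hoxd3 and Hoxd4 are red at days 3 and 6.

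The 3 largest falls were those of Hoxb5, Hoxa11 and Hoxc9. Hoxb5, a central gene linked to lung and neural crest development, scored 104 and 92 at day 0 and 0 and 2 at day 12, a log2 difference of -5.83 (SE 0.35, adjusted p = 2.21e-14). Hoxa11, which patterns the forearm and the uterus, went from 196 and 188 to 3 and 4 (-5.43, SE 0.22, adjusted p = 2.71e-18). Hoxc9, a thoracic and motor neuron gene, went from 216 and 207 to 4 and 5 (-5.28, SE 0.29). In each of these genes all libraries of the groups were far apart, and the share of all genes so separated was not counted. Hoxc5 fell from 246 and 194 to 5 and 5 (-5.19, SE 0.19) and Hoxc10, a hindlimb gene, from 301 and 220 to 7 and 11 (-4.72).

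Other Hoxa and Hoxb genes fell as well. Hoxa2, a hindbrain and neural crest gene, scored 54 and 42 at day 0 and 1 and 2 at day 12 (-4.31). Hoxa7 went from 246 and 240 to 9 and 22 (-4.01). Hoxb6 scored 184 and 228 and then 5 and 7 (-4.89). In these genes all 4 libraries kept the order of the groups, and the share of all genes that did so was not counted. Hoxb8, a gene of the posterior trunk and of myeloid progenitors, went from 260 and 217 to 13 and 5 (-4.70).

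Hoxd had the smallest median fall. Hoxd8 fell from 113 and 102 to 7 and 7 (-3.76), Hoxd11 from 36 and 60 to 5 and 4 (-3.12), and Hoxd10 from 86 and 50 to 5 and 9 (-3.10). The smallest fall of any member was that of Hoxd3, from 26 and 21 to 11 and 16 (-0.77, SE 0.25, adjusted p = 0.00607). The 2 Hoxd4 entries fell by 0.96 and 1.07 on the log2 scale. In Hoxc the exception was the 3′ gene Hoxc4, which scored 159 and 139 at day 0 and kept 48 and 64 at day 12 (-1.41). By number, the median fall was -2.82 for anterior genes (1 to 3, 6 entries), -3.87 for central genes (4 to 8, 14 entries) and -3.26 for posterior genes (9 to 13, 10 entries).

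On a per-kilobase scale, Hoxb9, a gene of the lower trunk, had the highest level at day 0, at 268 per kb of exon, followed by Hoxa5 at 158 and Hoxc6 at 157. Hoxd3 was lowest at 5.61 per kb. At day 12 the order had changed, with Hoxd13 (23.0 per kb) and Hoxc4 (21.8 per kb) above Hoxb9 (13.6 per kb). The day 12 ranges of Hoxd13 (20.1 to 25.8) and Hoxc4 (18.7 to 24.9) overlapped, so these neighbours in the order did not differ beyond their spread. Hoxb5 was lowest, at 0.359 per kb.

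Hoxd genes departed from the other clusters within 3 days. In day 3 SSEA1+ cells, 6 entries were higher and 18 lower than at day 0, against 39.7% and 32.5% of all genes. By cluster, 5 of 8 Hoxd entries were higher and none lower, 1 of 8 Hoxa genes was higher and 5 lower, 7 of 8 Hoxb genes were lower and 6 of 6 Hoxc genes were lower. Summed over members, the Hoxd score went from 768.5 to 1363.5, while the Hoxb sum went from 1845 to 502.5 and the Hoxc sum from 1547.5 to 472. The 5 higher Hoxd entries and the Hoxd sum include both Hoxd4 identifiers and Hoxd3, which shares exon sequence with Hoxd4. They are therefore fewer independent signals than entries. The fibroblast marker sum of these cells was 5065 to 5408, against 87764 to 93831 at day 0, and its part in these differences was not tested.

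The genes higher in day 3 SSEA1+ cells were Hoxd3, Hoxd4, Hoxd9 and Hoxd13 of the Hoxd cluster, and Hoxa9. Hoxd3, an anterior gene of the axial skeleton, scored 26 and 21 at day 0 and 110 and 90 in day 3 SSEA1+ cells (2.04, SE 0.25, adjusted p = 3.43e-08). Hoxd4, under its first identifier, went from 45 and 48 to 159 and 143 (1.68), and under its second from 32 and 33 to 94 and 92 (1.49). Hoxd13, the 5′ gene required for digits, scored 356 and 356 and then 632 and 633 (0.83, SE 0.12). None of these groups overlapped, and the share of all genes without overlap was not counted. Hoxd9 (0.75) and Hoxa9 (0.90, from 138 and 154 to 251 and 298) were the remaining genes that rose.

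Hoxb genes led the fall in the same cells. Hoxb9 scored 712 and 668 at day 0 and 74 and 62 in day 3 SSEA1+ cells (-3.33, SE 0.20, adjusted p = 2.55e-14). Hoxb5 reached 10 and 12 (-3.05) and Hoxb8 reached 24 and 38 (-2.93). At the 3′ side of the cluster, Hoxb3 went only from 177 and 181 to 131 and 148 (-0.36, adjusted p = 0.0495). The call for Hoxb3 sat at the threshold.

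From day 3 to day 12 the SSEA1+ cells lost the Hoxd rise. At day 6, 4 entries (Hoxa9, Hoxd3 and both Hoxd4 entries) were higher than at day 0 and 23 were lower, beside 42.0% and 35.0% of all genes. At day 9, 2 were higher (Hoxd3 at 0.89 and 1 Hoxd4 entry at 0.45) and 26 lower, beside 36.8% and 36.1%. With quantile normalisation no entry was higher at day 9. Between day 9 SSEA1+ and day 12 GFP+ cells all 30 entries fell further, beside 33.6% of all genes, with a median of -1.88. Hoxa11 fell most in that step (-2.75), from 28 and 30 to 3 and 4, and Hoxd8 went from 49 and 54 to 7 and 7 (-2.71). Hoxb6 fell by 2.63.

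In Thy1+ cells some Hox genes rose and others fell. Against day 0, 4 entries were higher and 12 lower at day 3 (22.3% and 20.1% of all genes), 9 and 10 at day 6 (28.9% and 32.0%), and 5 and 13 at day 9 (30.3% and 34.5%). The day 3 total of 16 fell to 7 without the first day 0 or first day 3 Thy1+ control library, to 8 without the second Thy1+ library and to 10 without the second day 0 library. At day 9 the direction followed position: 3 of 6 anterior entries were higher and 1 lower, 2 of 14 central entries were higher and 4 lower, and none of 10 posterior entries was higher and 8 were lower. The medians were 0.69, -0.43 and -0.84. The fibroblast marker sum was 281870 to 295264 in these day 9 cells against 87764 to 93831 at day 0, with 8 of 9 markers higher, and the macrophage sum was 920 to 1441 against 4103 to 5096, with 6 of 7 lower. All 8 pluripotency markers were higher, with sums of 513 to 573 against 8 to 9. The part of these shifts in the Hox differences was not tested.

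Hoxa3, a pharyngeal arch gene, illustrated the anterior side, with 104 and 98 at day 0 and 232 and 260 in day 9 Thy1+ cells (1.27, SE 0.18, adjusted p = 6.93e-07). Hoxb3 went from 177 and 181 to 318 and 318 (0.83) and Hoxd3 from 26 and 21 to 48 and 41 (0.90). On the posterior side, Hoxc10 went from 301 and 220 to 50 and 81 (-2.0) and Hoxc9 from 216 and 207 to 50 and 64 (-1.88). In day 6 Thy1+ cells, Hoxd11 (1.26), Hoxd3 (1.19) and the first Hoxd4 entry (1.05) were among the entries that rose, and at day 3 the rises of Hoxd3 and Hoxd4 were between 0.82 and 0.85.

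**Figure D2:**
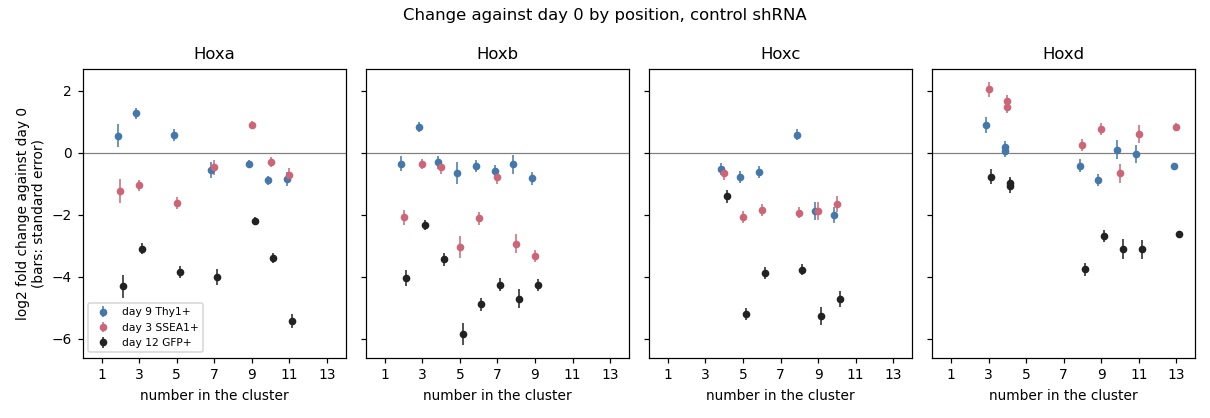
Mean log2(score + 1) difference from day 0 in control cells (vertical axis) against Hox number (horizontal axis), with a panel for each cluster, a colour for each of 3 populations and bars for the standard error. Day 3 SSEA1+ cells show Hoxd entries above 0, except Hoxd10, and Hoxb and Hoxc below it, day 9 Thy1+ cells show low numbers above high numbers in Hoxa, and day 12 GFP+ cells lie below 0 throughout.

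On each day more Hox entries were lower than higher in SSEA1+ compared with Thy1+ cells. In SSEA1+ cells 6 entries were higher and 15 lower at day 3 (35.4% and 28.8% of all genes), 2 and 20 at day 6 (42.4% and 33.8%), and 0 and 23 at day 9 (38.8% and 30.0%). At day 3 the 6 higher entries were Hoxd3 (1.23), Hoxd13 (0.95), both Hoxd4 entries, Hoxa9 (0.85) and Hoxd9 (0.65). At day 6 Hoxd11 was 106 and 120 in Thy1+ and 10 and 10 in SSEA1+ cells (-3.37). Hoxc8, a brachial and thoracic gene, was 670 and 576 in day 6 Thy1+ cells and 66 and 86 in SSEA1+ cells (-3.03). At day 9 Hoxa2 was 62 and 80 in Thy1+ cells and 10 and 6 in SSEA1+ cells (-3.03). The groups were apart in each of these genes, and the share of all genes so separated was not counted. All 9 fibroblast markers were lower in SSEA1+ than in Thy1+ cells on each day, and 3, 7 and 8 of 8 pluripotency markers were higher at days 3, 6 and 9. Their part in the Hox differences was not tested.

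Most pairs of Hox genes moved together over the 11 control populations, which share libraries' scaling and a common day 0 to day 12 trend. Neighbouring genes of a cluster had a median Pearson r of 0.91 over 25 pairs, and other pairs of a cluster 0.853 over 67 pairs. Genes of the same number in different clusters had a median r of 0.82 (25 pairs), and pairs differing in both 0.809 (289 pairs). By cluster, the median was 0.835 within Hoxa, 0.882 within Hoxb, 0.914 within Hoxc and 0.785 within Hoxd. Between clusters it was in the same range for Hoxa with Hoxb (0.850), Hoxa with Hoxc (0.847) and Hoxb with Hoxc (0.882), and lowest for Hoxb with Hoxd, at 0.664. The most alike pair was Hoxa7 and Hoxa11 (0.987), and the least alike Hoxb9 and Hoxd4 (-0.10). These values are descriptions over 11 points.

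The Ctcf shRNA had few measurable effects on Hox genes before day 6. None of the 30 entries was called at day 0 or in the 3 day 3 populations, where 6.68% (day 0), 4.02% (Thy1+), 6.78% (SSEA1+) and 4.88% (SSEA1-Thy1-) of all genes were called. By limma, unadjusted p was below 0.05 for 1, 2, 2 and 2 entries. A few of 30 entries can pass that threshold without an effect, so these counts alone show none. Differences ranged from -0.25 to 0.59 at day 0. Hoxd13 was among the entries with unadjusted p below 0.05 in all 4 populations, with log2 differences of 0.28 at day 0 and of 0.27, 0.34 and 0.26 in day 3 Thy1+, SSEA1+ and SSEA1-Thy1- cells. At day 0 Hoxd13 scored 356 and 356 under the control shRNA and 426 and 442 under the Ctcf shRNA.

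At day 6 few Hox entries were called with the Ctcf shRNA, and Hoxd13 was higher in all 3 populations. In SSEA1+ cells 5 entries were higher and none lower (11.2% of all genes higher, 1480 of 13451 lower): Hoxd11 (1.23), Hoxd13 (1.02), Hoxc9 (0.81), Hoxd9 (0.67) and Hoxa11 (0.64). In day 6 SSEA1-Thy1- cells 5 were higher (Hoxd13 1.09, Hoxa11 1.05, Hoxd11 0.92, Hoxa10 0.84 and Hoxb9 0.58) and 1 was lower (Hoxd4 -0.52), beside 20.2% and 21.9% of all genes, so that the members' share was no larger than that of all genes. In day 6 Thy1+ cells Hoxd13 was higher (0.56) and Hoxd8 lower (-0.60), beside 6.83% and 7.56%. With quantile normalisation Hoxd13 alone was called in day 6 Thy1+ and SSEA1+ cells, 1 higher and 0 lower in each.

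Hoxd13 was called higher in 6 of the 11 populations. In day 6 SSEA1-Thy1- cells it scored 346 and 308 under the control shRNA and 699 and 694 under the Ctcf shRNA (adjusted p = 5.62e-08). In day 6 SSEA1+ cells it scored 187 and 204 against 419 and 376 (adjusted p = 6.15e-07). All Ctcf shRNA libraries lay above the controls, and the share of all genes so separated was not counted. Hoxa11, another limb gene, scored 76 and 74 against 156 and 156 in day 6 SSEA1-Thy1- cells, and Hoxd11 scored 10 and 10 against 22 and 28 in SSEA1+ cells. The fibroblast marker sum was also higher with the Ctcf shRNA in day 6 SSEA1-Thy1- cells (24109 to 24990 against 53914 to 54289) and in SSEA1+ cells (2745 to 2987 against 3642 to 4254), and lower in Thy1+ cells (176637 to 185780 against 119570 to 120565). The pluripotency sum was lower in SSEA1-Thy1- cells (494 to 508 against 139, 5 of 8 markers lower) and in SSEA1+ cells (2920 to 3130 against 1819 to 1829, 1 of 8 lower), and was 49 to 59 against 45 to 68 in Thy1+ cells. All 3 keratinocyte markers were higher in Thy1+ and SSEA1-Thy1- cells and 2 in SSEA1+ cells, and the skeletal muscle marker was higher in SSEA1-Thy1- cells. The part of these markers in the Hox results was not tested.

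The libraries behind the day 6 counts mattered. The 5 calls in SSEA1+ cells became 2 without the first control or the second Ctcf shRNA library and 3 without the first Ctcf shRNA library. The 6 calls in SSEA1-Thy1- cells became 3 without the second library of either shRNA, and the 2 in Thy1+ cells became 1 without any of the 4 libraries. When only the groups compared were fitted, no entry was called in day 6 Thy1+ or SSEA1+ cells.

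At day 9 the sorted fractions went in opposite directions. In Thy1+ cells 8 entries were higher with the Ctcf shRNA and none lower (7.51% of all genes higher, 12.1% lower): Hoxb5 (1.14), Hoxd13 (0.88), Hoxb6 (0.70), Hoxa10 (0.64), Hoxc6 (0.60), Hoxa9 (0.56), Hoxa5 (0.55) and Hoxc8 (0.55). In SSEA1-Thy1- cells 8 were higher and none lower (14.6% and 13.4%), among them Hoxa10 (1.02), Hoxa3 (0.88), Hoxa9 (0.83), Hoxa5 (0.66) and Hoxa7 (0.66). In SSEA1+ cells none was higher and 10 were lower (4.80% and 9.04%), led by Hoxd11 (-1.64), Hoxb8 (-1.40), Hoxc8 (-1.0), Hoxd9 (-0.88) and Hoxc10 (-0.81). With quantile normalisation 9 entries were lower there and 1 was higher.

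Individual libraries showed the size of these day 9 differences. In Thy1+ cells Hoxb5 scored 64 and 60 under the control shRNA and 141 and 134 under the Ctcf shRNA. Hoxd13 scored 278 and 247 against 532 and 440. In SSEA1-Thy1- cells Hoxa10 scored 70 and 97 against 200 and 142 and Hoxa3 scored 88 and 98 against 198 and 148. In these genes both Ctcf shRNA libraries exceeded both controls, and the share of all genes that did so was not counted. In SSEA1+ cells the order was the other way, with Hoxd11 at 12 and 17 against 2 and 7, Hoxb8 at 42 and 33 against 10 and 18, and Hoxc8 at 83 and 143 against 52 and 56.

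The fibroblast marker sum moved with the Hox genes in day 9 SSEA1+ cells, from 34461 to 35132 under the control shRNA to 12294 to 13807 under the Ctcf shRNA, with 8 of 9 markers lower. It did not rise in Thy1+ cells (281870 to 295264 against 242447 to 285278, 3 of 9 lower) or in SSEA1-Thy1- cells (88871 to 89264 against 82728 to 87251, 4 of 9 lower), where Hox entries were higher. In Thy1+ cells the pluripotency sum was 513 to 573 under the control shRNA and 136 to 196 under the Ctcf shRNA, with 5 of 8 markers lower, and the skeletal muscle marker was higher (962 to 1082 against 1742 to 1824). In SSEA1-Thy1- cells the pluripotency sum was 2187 to 2277 against 1263 to 1356, with none called, and in SSEA1+ cells it was 4834 to 5055 against 5968 to 6384, with none called. The part of these markers in the Hox results was not tested. The day 9 difference of effects, SSEA1+ minus Thy1+, was below 0 and called for 17 entries (9.43% of all genes), with Hoxd11 at -2.12, Hoxb8 at -2.05 and Hoxc8 at -1.55. Averaged over days 3, 6 and 9, the same difference was called for 3 entries (4.29% of all genes), Hoxb2 (-0.65), Hoxc5 (-0.55) and Hoxc6 (-0.50). The day 9 contrast was chosen after the values were seen.

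The day 9 counts rested on single libraries. The 8 Thy1+ calls became 1 without the first Ctcf shRNA library, 3 and 4 without the second and first control library, and 5 without the second Ctcf shRNA library. The 10 SSEA1+ calls became 5 without the second control and 6 without the second Ctcf shRNA library. The 17 calls for the day 9 difference of effects became 9 without the first Ctcf shRNA Thy1+ library and 11 without the second control library of either fraction. The 3 calls for the mean difference became 0 without the second day 6 Ctcf shRNA Thy1+ library and 1 without any 1 of 11 others, spread over days 3, 6 and 9. The 8 SSEA1-Thy1- calls became 4 without the first control or the second Ctcf shRNA library. With only the groups compared in the fit, no entry was called in Thy1+ or SSEA1+ cells and 3 in SSEA1-Thy1- cells.

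The widest effect of the Ctcf shRNA was at day 12. In GFP+ cells 22 of 30 entries were higher and 1 was lower, beside 24.6% and 24.7% of all genes, with a median log2 difference of 1.06 against -0.07 for all genes. All 8 Hoxb genes, 7 of 8 Hoxa genes, 4 of 8 Hoxd entries and 3 of 6 Hoxc genes were higher. With quantile normalisation 17 were higher and 5 lower, the latter being Hoxc4, Hoxc10, Hoxd3 and both Hoxd4 entries. The summed score of the members was 498 under the control shRNA and 1068 under the Ctcf shRNA, against 5522.5 at day 0.

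**Figure D3:**
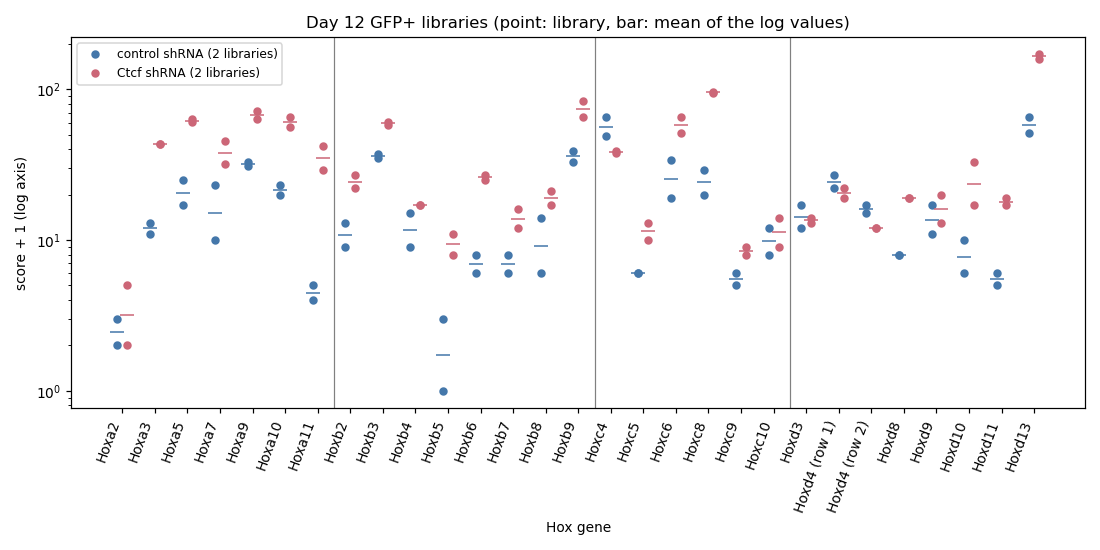
Scores of each Hox entry (log axis, score + 1) in the day 12 GFP+ libraries, 2 per shRNA. Hoxa11 shows the widest gap (3 and 4 against 41 and 28), while Hoxc4 has the control libraries (48 and 64) above the Ctcf shRNA libraries (38 and 37).

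Hoxa11 differed most, with 3 and 4 under the control shRNA and 41 and 28 under the Ctcf shRNA (2.96, SE 0.22, adjusted p = 1.67e-11). Hoxb5 scored 0 and 2 against 10 and 7 (2.44) and Hoxc8 scored 28 and 19 against 95 and 94 (1.99). The libraries of the shRNAs did not overlap for these genes, and the share of all genes without overlap was not counted. Hoxb6 scored 5 and 7 against 24 and 26 (1.91), Hoxa3 scored 12 and 10 against 42 and 42 (1.85), and Hoxd13 scored 64 and 50 against 158 and 170 (1.52, SE 0.12). Hoxd11 scored 5 and 4 against 18 and 16 (1.71). Of the upstream windows printed above for these genes, that of Hoxa11 holds the CTCF core match and that of Hoxd13 holds none. Windows of Hoxd11, which was higher, and of Hoxc4, which was lower, hold a match too. A link between match and effect was not tested.

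The 3′ Hoxd pair and 3′ Hoxc did not share the rise. Hoxc4 scored 48 and 64 under the control shRNA and 38 and 37 under the Ctcf shRNA (-0.55, adjusted p = 0.0246). Hoxd3 scored 11 and 16 against 13 and 12, a difference of -0.08 with a 95% interval from -0.59 to 0.43. For the Hoxd4 entries the intervals ran from -0.65 to 0.14 and from -0.87 to 0.04. Hoxa2, Hoxc9, Hoxc10 and Hoxd9 were also not called, with values from 0.20 to 0.63. Under quantile normalisation Hoxc10 was lower (-0.83) and Hoxb4, higher in the original scores at 0.55, was at -0.06 and not called.

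The members remained far below their day 0 level under the Ctcf shRNA. All 30 entries were lower at day 12 than at day 0 in shCTCF cells, beside 41.1% of all genes, with a median of -2.31. Hoxd13 fell by 1.40 on the log2 scale in these cells and Hoxa3 by 1.16. The effect of the Ctcf shRNA at day 12 exceeded that at day 0 for 17 entries (21.2% of all genes), and 15 were higher and 4 lower with quantile normalisation. It exceeded that in day 9 SSEA1+ cells for 24 and was below it for 1 Hoxd4 entry (21.2% of all genes higher, 18.4% lower). That contrast, too, was chosen after the values were seen.

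Fibroblast markers stood beside this day 12 result. Their sum was 13447 to 14513 under the control shRNA and 38166 to 38645 under the Ctcf shRNA, and 8 of 9 were higher, Thy1 among them at 1.23. The pluripotency sum was 38351 to 38868 against 21627 to 21662, with none of 8 markers called. Macrophage (428 to 537 against 532 to 611), neural (1022 to 1122 against 960 to 987) and endothelial (1389 to 1545 against 1334 to 1347) sums differed less. Keratinocyte markers summed to 422 to 455 against 622 to 638, and the 1 skeletal muscle marker tested was at 74 to 88 against 171 to 172. The part of residual fibroblast RNA in the Hox differences was not tested.

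**Figure D4:**
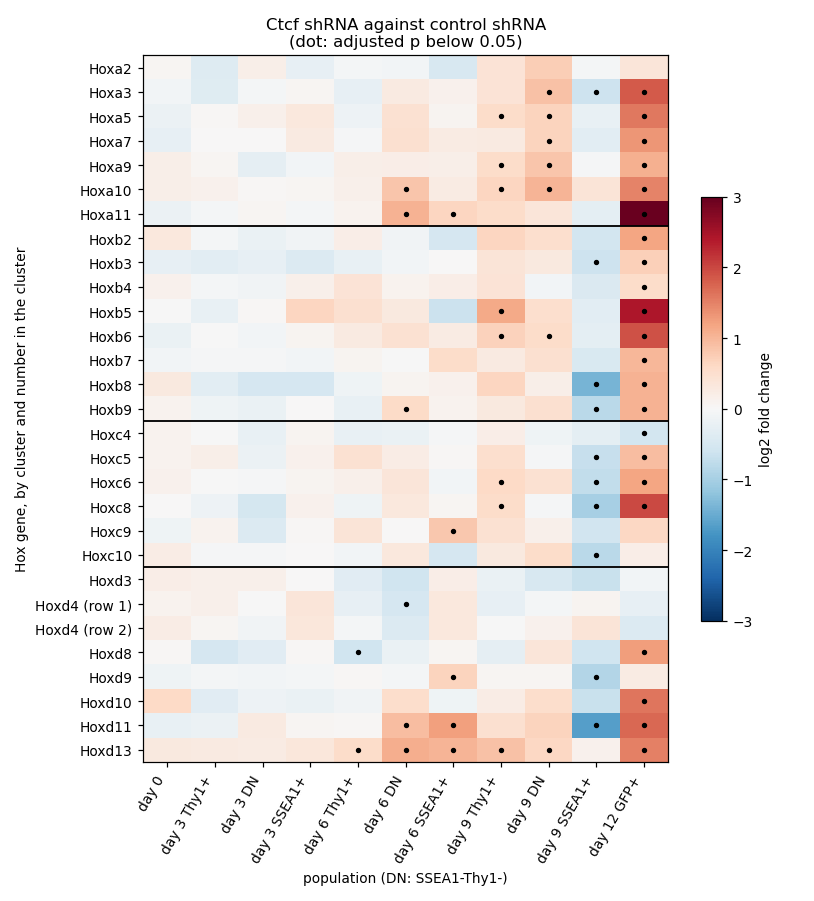
Log2(score + 1) difference between Ctcf shRNA and control shRNA for each Hox entry (vertical axis) in the 11 populations (horizontal axis), from 2 libraries per group. Red is higher with the Ctcf shRNA, and a dot marks an adjusted p below 0.05. Day 9 SSEA1+ is mostly blue (median -0.50), day 12 mostly red (median 1.06), and Hoxd13 is red in every population from day 0 on.

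Averaged over the 11 populations, 14 entries were higher with the Ctcf shRNA and none lower, beside 26.2% and 25.8% of all genes. Among the Hoxa genes were Hoxa10 (0.47), Hoxa11 (0.46), Hoxa5 (0.30), Hoxa9 (0.26), Hoxa7 (0.24) and Hoxa3 (0.20). In the other clusters they were Hoxd13 (0.63, SE 0.04, adjusted p = 8.27e-14), Hoxd11 (0.30), Hoxb5 (0.39), Hoxb6 (0.33), Hoxb7 (0.15), Hoxc6 (0.19) and Hoxc5 (0.15). Hoxd13 had the largest mean. With quantile normalisation 12 were higher and 1, Hoxd3, was lower.

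Genes that act with or on the clusters were read from lists, beside 40.1% of all genes higher and 40.2% lower at day 12 than at day 0, and 24.6% higher and 24.7% lower with the Ctcf shRNA at day 12. Hox proteins bind DNA with the TALE cofactors of the Pbx, Meis and Pknox families. Of 8 tested, 3 were higher and 5 lower at day 12 than at day 0 in control cells, with Meis3 at -2.06, Pbx2 at 1.11 and Pbx4 at 1.96. With the Ctcf shRNA at day 12, 4 were higher (Meis3 1.01, Pbx3 0.51 and Meis2 among them) and Pbx4 was lower (-0.86). Of 24 Polycomb and trithorax regulators, which repress and maintain Hox transcription, 18 were higher and 5 lower at day 12 than at day 0, among them Cbx7 (5.75), Phc1 (4.58) and Jarid2 (4.58). With the Ctcf shRNA 3 were higher (Phc2 0.67 among them) and 11 lower (Jarid2 -0.70, Cbx2 -0.68).

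Retinoic acid genes, which set the anterior limits of Hox expression, and other homeobox genes of mesenchyme were measured alike. Of 10 retinoic acid and Cdx inputs tested, 7 were higher and 2 lower at day 12 with the Ctcf shRNA. They included the retinoic acid degrading enzymes Cyp26a1 (2.26) and Cyp26b1 (1.84) and the synthesising enzymes Aldh1a3 (1.57) and Aldh1a2 (1.16). In day 9 SSEA1+ cells none was higher and 6 were lower, beside 4.80% and 9.04% of all genes. Of 21 other mesenchymal homeobox genes, 19 were lower and 1 higher at day 12 than at day 0 in control cells, and 13 were higher and 2 lower with the Ctcf shRNA at day 12. Lhx9 (2.43), Emx2 (2.31) and Prrx2 (2.23) had the largest differences. Of the 18 genes that flank the clusters, 10 were higher and 4 lower at day 12 than at day 0, and 3 were higher and 4 lower with the Ctcf shRNA, the latter shares no larger than those of all genes. Halr1, a non-coding RNA beside Hoxa, was listed at 0 in day 0 control cells and at a mean of 95 at day 12, and was lower with the Ctcf shRNA (a mean of 12, log2 difference -2.88, adjusted p = 0.00978). Gm53, the other non-coding gene tested, fell to day 12 (-1.94) and was not called under the Ctcf shRNA.

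The day 10 table could call few differences of any gene. Ctcf scored 1262 and 1234 with the control vector and 5110 and 6132 with the CTCF vector and was itself not called by limma (log2 difference 2.16, adjusted p = 0.184), nor was Smarca5 with its shRNA (-1.06, adjusted p = 0.0959). The Hox tests at day 10 therefore say little either way. Of the 14 members measured, 7 from Hoxa, 2 from Hoxb, 4 from Hoxc and Hoxd10, none was called by limma with overexpression (0.0387% of all genes), with the Smarca5 shRNA added (0% of all genes) or between the latter and the control vector (0.0387%). No member had an unadjusted p below 0.05, and none was called in any alternative fit. The control libraries were closer to each other than the other pairs of this table. Their chi-square per gene had a median of 0.148, against 3.32 and 4.46, and a mean of 1.40, against 26.5 and 33.3. The scores are normalised values, so sampling noise cannot be read from them. The 2 control libraries were counted as 1 sample, which leaves 2 residual degrees of freedom. Median differences were -0.14, -0.03 and -0.14.

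The extremes at day 10 were Hoxb3 and Hoxc10. Hoxb3 scored 138 and 147 in the control columns and 97 and 86 with CTCF, a difference of -0.64 with a 95% interval from -1.30 to 0.03. Hoxc10 scored 104 and 104 against 166 and 120, a difference of 0.44 with an interval from -0.29 to 1.16. Neither group overlapped the other, and neither difference passed the test. Smarca5, the chromatin remodeller targeted by the added shRNA, went from 13818 and 13283 to 6387 and 6650. The fibroblast marker sum, over 7 genes here, was 15198 to 15241, 13260 to 13967 and 13406 to 14011 in the 3 groups.

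The authors' deposited tables of comparisons cover 39 Hox genes in unsorted day 10 cells. Their columns are unnamed, and direction was read from the level of Ctcf. That level was 1730 and 2197 in the shRNA comparison (log2 ratio 0.34) and 2039 and 10177 in the overexpression comparison. In the authors' deposited table for the Ctcf shRNA, 31 Hox genes had a mean of at least 10 in either group, of which 26 were higher and 5 lower in the cells with more Ctcf, beside 50.2% and 49.8% of the 18529 genes at that level, with a median log2 ratio of 0.35. Of these, 4 had the authors' p below 0.05, all higher with more Ctcf, where 8.98% of genes were higher and 9.48% lower at that threshold: Hoxc8 (353 and 487 with less and more Ctcf), Hoxc9 (104 and 164), Hoxa5 (130 and 189) and Hoxd10 (11.5 and 36.5). In the authors' deposited table for overexpression, 32 reached that level, of which 7 were higher and 25 lower with more Ctcf. Their median was -0.15, and 51.0% of the 17269 genes at that level were higher and 49.0% lower. None of the 32 had p below 0.05, a threshold passed by only 220 higher and 435 lower genes of the 17269. Both tables give means per group, and no difference between these tables or from the sorted cells was tested.

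In the MEF and iPSC libraries, the Hoxa, Hoxb and Hoxc genes separated the cells and Hoxd did so less. With 1 library each there is no replicate check and no test. CPM values (counts scaled to the library total, which was 16593659 and 9912018) were used, and ratios are of CPM + 1. At least 8-fold higher in MEFs were 13 of 36 members (4.92% of all genes), 5 from Hoxa, 5 from Hoxb, 3 from Hoxc and none of 8 from Hoxd. None was 8-fold higher in iPSCs (4.76% of all genes). The median log2 ratio was 2.93 for Hoxa, 3.02 for Hoxb, 2.17 for Hoxc and 0.76 for Hoxd. By number it was 3.12 for anterior, 3.19 for central and 0.91 for posterior genes. With a pseudocount of 0.1 CPM, 17 members were higher in MEFs and 3 in iPSCs. A pseudocount of 1 shrinks the ratios of genes with low CPM. Without it, Hoxa2 (21.4), Hoxa4 (45.4), Hoxa9 (15.8), Hoxc4 (8.47), Hoxd3 (8.21) and Hoxd10 (9.76) also passed 8-fold in MEFs.

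**Figure D5:**
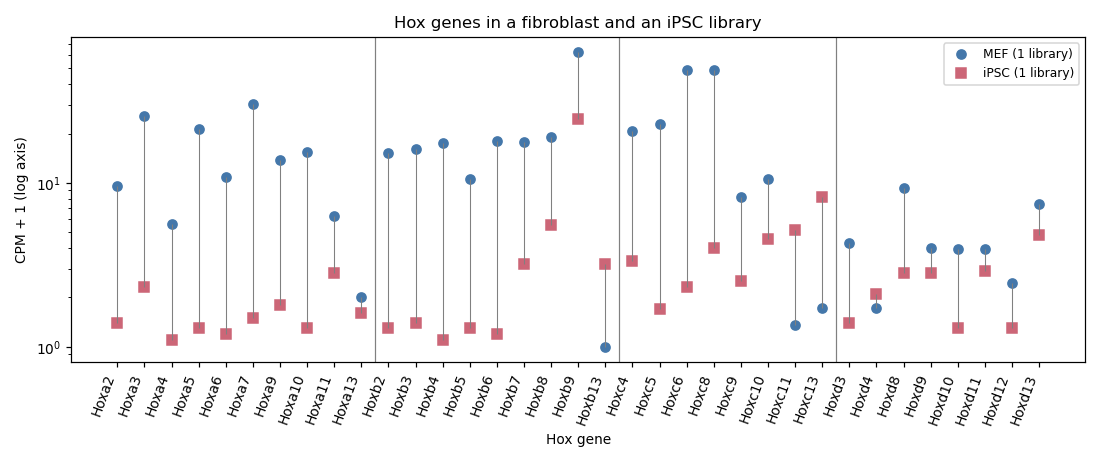
CPM + 1 (log axis) of the Hox genes in the MEF library (circles) and the iPSC library (squares), by cluster and number. Hoxc6 and Hoxa7 show wide gaps with MEFs above. Hoxb13, Hoxc11 and Hoxc13 have the iPSC library above, and so has Hoxd4 by a margin within counting error.

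Hoxc6, a gene of the forelimb level, had 792 reads in MEFs and 13 in iPSCs (a log2 ratio of 4.40), and Hoxa7 had 489 and 5 (4.34). Hoxa5 had 338 and 3 and Hoxb4 had 276 and 1. Of the 5′ genes, Hoxc13, Hoxc11 and Hoxb13 had the higher CPM in iPSCs, whereas Hoxd12 (24 and 3 reads) and Hoxd13 (106 and 38) had the higher CPM in MEFs. Hoxa13 (17 and 6) was also higher in MEFs, but within counting error (CPM ratio 1.69, 95% exact counting interval 0.637 to 5.24). The fold values that follow are of CPM without the pseudocount. Hoxc13, a hair and tail gene, had 12 reads in MEFs and 71 in iPSCs, a CPM 9.91-fold higher (95% exact counting interval 5.33 to 20.1). Hoxc11 had 6 and 41, 11.4-fold higher (4.83 to 33.0). Hoxb13, a prostate and tail gene, had no read in MEFs and 22 in iPSCs, at least 12.3-fold higher against a floor of 3 counts in the MEF library. The exact counting interval, which also covers the error of the iPSC count, had a lower limit of 9.17. Hoxd4 had 12 and 11 reads. These intervals and floors cover counting error between 2 libraries, not the cell types.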

How the data were processed

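RNA-seq of mouse cells, 44 sorted libraries, 6 of day 10, and 1 each of MEFs and iPSCs, was analysed at the Hox genes. The submitters' processing notes name Trim Galore, FastQC and RSEM, with mm10 (GRCm38) for 54 samples and mm9 for 2, and versions are not given. The sorted and day 10 tables hold scores, gene tag counts that the authors normalised to a common distribution and deposited as whole numbers. The method of that step is not given in the sources used here. The MEF and iPSC values are raw counts per gene as deposited. The authors deposited mean levels, a log2 ratio and a p-value per gene in 2 comparison tables without a header, and these were copied and counted by direction. The day 10 shRNA samples were used through those tables alone.

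The members and gene lists were chosen with earlier results of these data known. Scores were analysed as log2(score + 1) with limma 3.58.1 in R 4.3.3, with a mean-variance trend and 1 model over the 22 sorted groups (22 residual degrees of freedom) and 1 over the 3 day 10 groups (2). A gene was tested if it scored at least 10 in at least 2 libraries, which all entries did. Tests are two-sided with Benjamini-Hochberg adjustment over the table's genes. The MEF and iPSC counts were compared as CPM with a pseudocount of 1 and an 8-fold threshold, and exact 95% counting intervals. All Hox genes could be named, but some results on single genes are not reported here. Per-library values are given for the called members with the largest differences, up to 3 per cluster and direction between day 12 and day 0 and up to 3 per direction elsewhere, and of listed genes at most 4 called ones per comparison. Annotation was GENCODE M21. The identifiers of 29 entries matched it. Alternatives were another pseudocount, a filter on low scores, quantile normalisation, no trend, only the groups compared, the replicate number as a block, and each library left out in turn. The models were tested on simulated data.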

Additional observations from a re-analysis of the deposited data

Results flagged for a closer look

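The effect of the Ctcf shRNA on a member differed between day 12 GFP+ and day 0 cells for 17 entries, by limma's test of the difference of the log2 effects. The differences were positive throughout: Hoxa3 1.93, Hoxa5 1.76, Hoxa7 1.56, Hoxa9 0.91, Hoxa10 1.32, Hoxa11 3.14, Hoxb3 0.98, Hoxb5 2.45, Hoxb6 2.11, Hoxb7 1.08, Hoxb9 0.92, Hoxc5 0.82, Hoxc6 1.06, Hoxc8 1.98, Hoxd8 1.21, Hoxd11 1.93 and Hoxd13 1.23. Hoxa11 had the widest, from -0.17 at day 0 to 2.96 at day 12.

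The mean effect over days 3, 6 and 9 was lower in SSEA1+ than in Thy1+ cells for Hoxb2 (-0.65), Hoxc5 (-0.55) and Hoxc6 (-0.50), by the same test. Between day 12 GFP+ and day 9 SSEA1+ cells the effect differed for 25 entries, and between day 9 SSEA1+ and day 9 Thy1+ cells for 17.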

How the results depend on the processing

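Counts of called Hox entries at day 12 varied little: leaving out each library gave 29 to 30 for day 12 against day 0, 19 to 21 for the Ctcf shRNA effect at day 12 (23 with all libraries), 16 to 20 for that effect minus the one at day 0, and 12 to 16 for the mean effect. Other counts rested on few libraries: with 1 left out they were 7 to 10 for day 3 Thy1+ cells against day 0, and for the Ctcf shRNA effect 1 in day 6 Thy1+ cells, 2 to 6 in day 6 SSEA1+, 3 to 5 in day 6 SSEA1-Thy1-, 1 to 5 in day 9 Thy1+, 5 to 9 in day 9 SSEA1+ and 4 to 8 in day 9 SSEA1-Thy1- cells. The SSEA1+ minus Thy1+ difference of effects gave 0 to 3 over the 3 days and 9 to 15 at day 9. The lone library left in a group is then assumed to vary like the other groups.

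Fitting only the groups compared leaves few samples to estimate the spread. The effect was then called for 0 entries in day 6 Thy1+, day 6 SSEA1+, day 9 Thy1+ and day 9 SSEA1+ cells and for 3 in day 9 SSEA1-Thy1- cells, and the difference of effects for 1 over the 3 days and 8 at day 9. Quantile normalisation gave 1 call in day 6 Thy1+ cells, 1 in day 6 SSEA1+ cells and 1 for the mean difference of effects. It turned the day 12 effect of Hoxb4 to -0.055 (adjusted p = 0.852) and of Hoxc10 to -0.83 (adjusted p = 0.0241, limma). The cause was not tested. It moved the median of all genes by at most 0.05 on the log2 scale. With a pseudocount of 0.1 CPM, 20 members passed the MEF and iPSC threshold.

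Equal replicate numbers did not pair the libraries: deviations from the group means had a median r of 0.01 over 231 pairs of groups (-0.10 to 0.13). With the replicate block the day 12 effect was called for 23 entries and that in day 9 SSEA1+ cells for 11, and no count moved by over 1.5 times. Of single members, 5028 values under other settings kept direction and call, 118 lost and 58 gained a call and 2 reversed. The unknown depth of the sorted libraries limits statements on low scores.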
